A study of Mus musculus with 32 samples.

Results

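The nuclear genes for the oxidative phosphorylation machinery were followed across 32 mouse gene-expression arrays in 7 groups. Members were taken by gene symbol from the platform annotation: a probeset had to name exactly 1 gene, with a symbol beginning Nduf and then a, b, c, s or v, being Sdha to Sdhd, or beginning Uqcr, Cox4 to Cox8 or Atp5. Where a gene had several such probesets, the probeset with the highest mean over all 32 arrays stood for it. This gave 89 genes of the 19938 named on the array, with 43 in complex I (7 of them Ndufaf assembly factors), 4 in complex II, 8 in complex III, 17 in complex IV and 17 in complex V. The symbols decided the complex, so Ndufa4, now usually counted with complex IV, stands here with complex I.

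The leukemia experiment held leukemic bone marrow of Pax5+/-;Myd88+/- mice (6 samples) and Pax5+/- mice (6 samples), and sorted precursor B cells (B220low IgM-, proB and preB together) of wild-type (WT) mice (4 samples). The proB experiment held B220+ marrow cells, purified with magnetic beads from healthy mice of 4 genotypes, namely Pax5+/-;Myd88-/-, Pax5+/-;Myd88+/-, Pax5+/- and WT (4 samples each), called proB cells here as in the series description. Pax5 is the transcription factor that commits cells to the B lineage, and Myd88 is the adaptor of most Toll-like receptors. The mice had a mixed C57BL/6 and CBA background and no treatment. Per the methods, proB cells came from marrow of mice 2 to 3 weeks old and were grown on ST2 stromal cells with IL7, and the labels say that mice were moved at 2 months from a pathogen-free to a conventional facility. The methods do not describe the Myd88-/- cultures. The labels name no sort of the leukemic marrow, so it can hold other cells, and in such bulk RNA fewer cells of a type and less RNA per cell cannot be told apart.

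Oxidative phosphorylation makes most of the ATP of a resting cell. Complex I (NADH dehydrogenase) and complex II (succinate dehydrogenase) pass electrons to ubiquinone, complex III passes them on to cytochrome c, complex IV (cytochrome c oxidase) gives them to oxygen, and complex V (ATP synthase) uses the proton gradient so built. Most subunits are encoded in the nucleus, while the core membrane subunits of complexes I, III, IV and V are encoded in mitochondrial DNA and complex II is wholly nuclear. Nuclear respiratory factor 1 (NRF1), the ETS factor GABP and YY1 are known activators of many of these nuclear genes.

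A promoter sequence (300 bases around the start site, RefSeq, GRCm38.p6) was at hand for 73 of the 89 members and for 27025 genes in all. The NRF1 motif GCATGCGC stood in 12 of the 73 members (16.4%, against 3.05% of all genes), the ETS motif CCGGAAG in 18 (24.7%, against 9.93%) and the YY1 motif AAGATGGCG in 7 (9.59%, against 1.64%), each searched on both strands and counted where any listed start site of the gene held it. Any of the 3 motifs was found in 31 members (42.5%, against 13.6% of all genes). The promoters of 4 members with large differences below are shown to let the motifs be seen in place, with motif letters in capitals. They are Cox6a1 (chr5:115348909-115349208, minus strand), Uqcr11 (chr10:80406772-80407071, minus strand), Ndufs7 (chr10:80249199-80249498, plus strand) and Atp5md (chr19:47090598-47090897, minus strand). Cox6a1 carries overlapping NRF1 matches on both strands and an ETS match, Uqcr11 an ETS and an NRF1 match, Ndufs7 a YY1 match and Atp5md an ETS match.
Cox6a1: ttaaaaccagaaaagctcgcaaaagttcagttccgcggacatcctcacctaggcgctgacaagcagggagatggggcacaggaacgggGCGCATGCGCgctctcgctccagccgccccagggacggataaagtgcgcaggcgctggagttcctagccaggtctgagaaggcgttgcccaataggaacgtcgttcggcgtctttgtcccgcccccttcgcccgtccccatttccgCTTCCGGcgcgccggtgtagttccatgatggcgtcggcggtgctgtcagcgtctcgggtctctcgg
Uqcr11: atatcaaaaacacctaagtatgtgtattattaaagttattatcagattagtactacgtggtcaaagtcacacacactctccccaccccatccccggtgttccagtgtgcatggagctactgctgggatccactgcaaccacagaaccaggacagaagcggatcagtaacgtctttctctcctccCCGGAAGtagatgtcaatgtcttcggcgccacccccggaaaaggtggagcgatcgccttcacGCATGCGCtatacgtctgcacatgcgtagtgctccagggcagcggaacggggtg
Ndufs7: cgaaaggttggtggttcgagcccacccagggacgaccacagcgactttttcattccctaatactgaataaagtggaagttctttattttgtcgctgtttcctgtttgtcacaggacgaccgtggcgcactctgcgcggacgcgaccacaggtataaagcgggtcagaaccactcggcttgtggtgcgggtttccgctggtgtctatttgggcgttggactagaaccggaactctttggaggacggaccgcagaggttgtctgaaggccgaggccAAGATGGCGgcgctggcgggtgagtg
Atp5md: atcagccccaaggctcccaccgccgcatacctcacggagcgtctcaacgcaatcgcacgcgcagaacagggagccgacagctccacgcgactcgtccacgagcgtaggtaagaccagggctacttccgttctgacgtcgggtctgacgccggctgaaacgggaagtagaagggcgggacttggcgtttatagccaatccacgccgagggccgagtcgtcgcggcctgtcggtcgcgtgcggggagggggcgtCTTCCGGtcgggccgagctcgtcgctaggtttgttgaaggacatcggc
A match is a description of the letters and not of binding. Among members lower in Pax5+/-;Myd88+/- than in Pax5+/- leukemias (below), 18 of 37 with a promoter had any of the 3 motifs, and among those higher 2 of 6 did.

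Array values were log2 signals normalised by the authors, and the median over all probesets lay between 6.88 and 7.03 on every array. Arrays of 1 group had correlations no lower than 0.9666 across all probesets. Myd88 itself followed the labels, with a median of 8.78 in Pax5+/-;Myd88+/- leukemias against 10.10 in Pax5+/- leukemias, while the proB medians were 7.39 for Pax5+/-;Myd88-/-, 8.64 for Pax5+/-;Myd88+/-, 9.27 for Pax5+/- and 9.49 for WT cells. The Xist level, which tells female from male samples, was high in all Pax5+/-;Myd88-/- and Pax5+/-;Myd88+/- proB arrays (12.29 to 12.52) and low in all Pax5+/- and WT proB arrays (5.32 to 6.11), so sex and genotype cannot be told apart between these pairs. Pax5, which also marks the B lineage, ran from 9.07 to 11.95 in Pax5+/-;Myd88+/- leukemias, from 7.69 to 12.29 in Pax5+/- leukemias and from 11.81 to 12.05 in sorted WT cells. In proB cells it ran from 10.88 to 11.05 with Pax5+/-;Myd88-/-, from 11.02 to 11.41 with Pax5+/-;Myd88+/-, from 10.86 to 11.34 with Pax5+/- and from 11.53 to 11.81 with WT genotype. Every group but the WT ones is Pax5+/-, so the Pax5 level cannot be read as B-lineage content alone. No label gives a hybridisation or scan batch.

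The level of the members as a whole differed between groups by less than 1 log2 unit. The median over the 89 members was 9.72 ± 0.24 in Pax5+/-;Myd88+/- leukemias, 10.17 ± 0.21 in Pax5+/- leukemias and 9.86 ± 0.06 in sorted WT cells (mean ± SD over arrays, n = 6, 6 and 4). Among proB cells the Pax5+/-;Myd88-/- samples had 10.09 ± 0.07, the Pax5+/-;Myd88+/- samples 9.49 ± 0.38, the Pax5+/- samples 9.53 ± 0.34 and the WT samples 9.47 ± 0.14 (n = 4 each). Pax5+/-;Myd88+/- leukemia arrays ran between 9.43 and 10.12 and Pax5+/- leukemia arrays between 9.86 and 10.42, so those groups overlapped. One Pax5+/- proB array (replicate 1) stood at 10.04, inside the 10.01 to 10.15 of the Pax5+/-;Myd88-/- cells, while the other 3 stood at 9.27 to 9.41. The complexes did not all follow 1 order. Complex II averaged 10.34 ± 0.26 in Pax5+/-;Myd88+/- leukemias, 10.57 ± 0.15 in Pax5+/- leukemias and 10.11 ± 0.02 in sorted WT cells, so both leukemia groups averaged above the sorted cells. Complex V averaged 10.74 ± 0.29 in Pax5+/-;Myd88+/- leukemias, 11.32 ± 0.25 in Pax5+/- leukemias and 11.16 ± 0.03 in sorted WT cells, and complex III 9.60 ± 0.19, 10.40 ± 0.19 and 9.92 ± 0.12 in these groups. Complex I averaged 9.27 ± 0.35, 9.69 ± 0.15 and 9.63 ± 0.18 in the same order. Complex IV hardly differed between the leukemia groups, at 9.99 ± 0.28 and 10.02 ± 0.30, with 9.59 ± 0.05 in sorted WT cells.

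**Figure D1:**
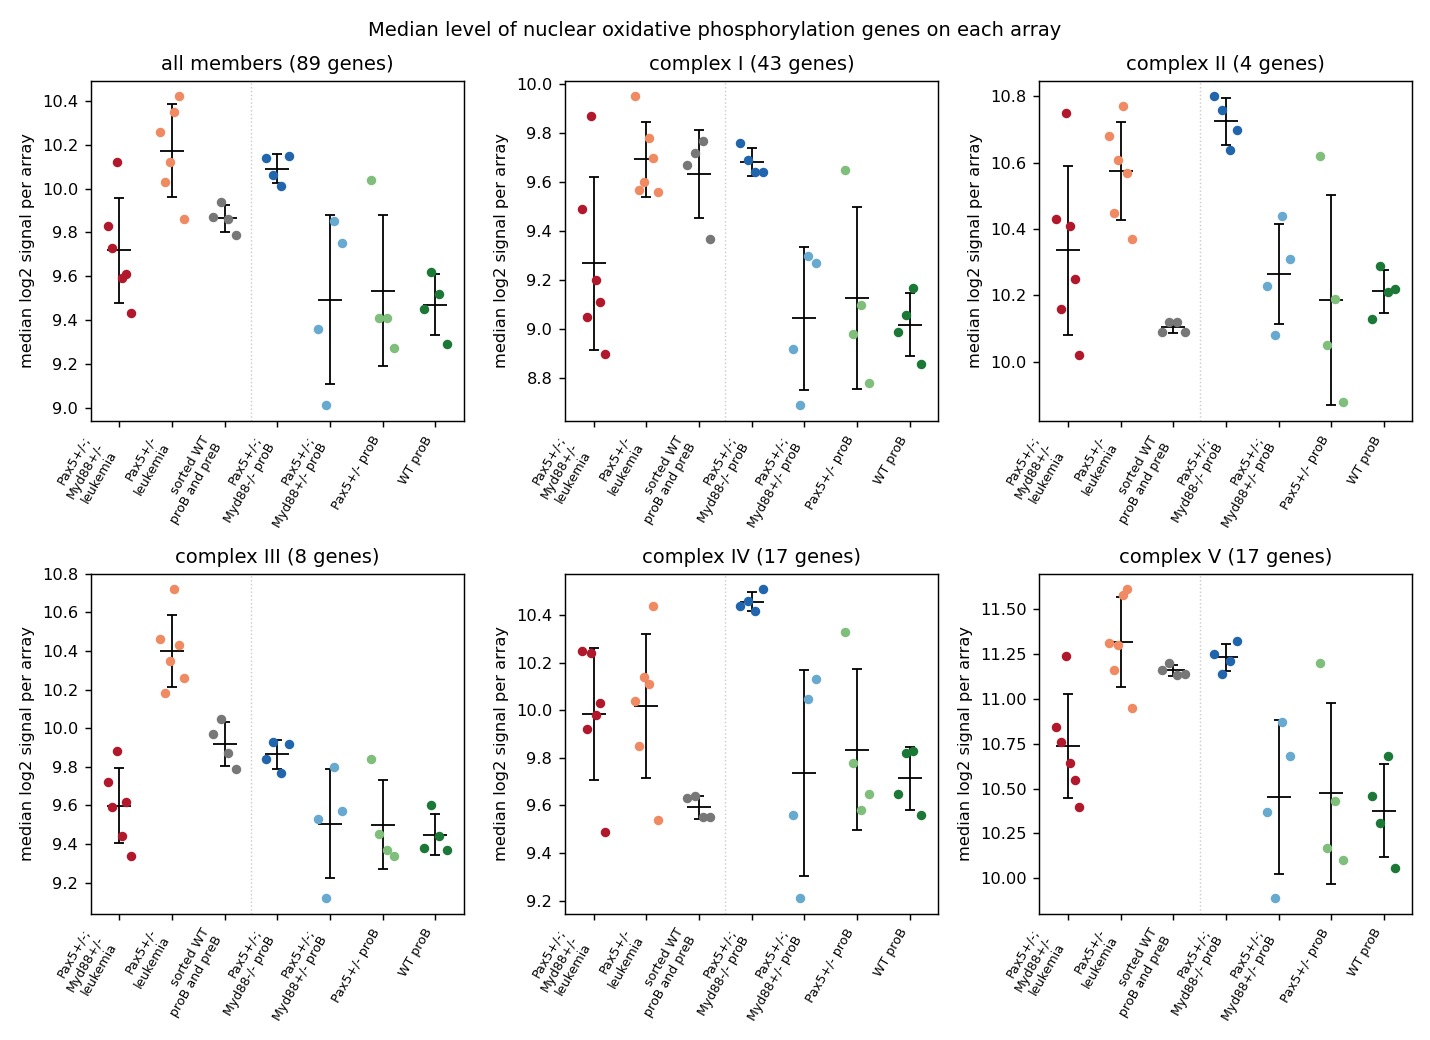
Median log2 signal of all members and of each complex on each of the 32 arrays, by group, with the mean and SD (black). Over all members the 4 Pax5+/-;Myd88-/- proB arrays sit between 10.01 and 10.15, and the Pax5+/- proB array at 10.04 stands apart from the other 3 of its group.

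The first comparison asked how leukemias of mice lacking a Myd88 allele differed from those of Pax5+/- mice with both. Most members that moved were lower: 43 of the 89 fell and 6 rose at an adjusted p under 0.05 (limma, Benjamini-Hochberg over all 28944 probesets), in Pax5+/-;Myd88+/- minus Pax5+/- leukemias. Over all probesets 18.1% passed as higher and 16.3% as lower, against 6.74% and 48.3% of the members. With a difference over 1 log2 unit as well, 19 members passed (21.3%, against 3.82% of all probesets and 8.3% of those with a mean of 9 or more). The median difference over the members was -0.36, against 0.01 over all probesets and -0.09 over the 6459 probesets with a mean of 9 or more, of which 19.6% passed as higher and 30.5% as lower.

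The members that fell came from every complex, namely 22 of 43 in complex I, 1 of 4 in complex II, 5 of 8 in complex III, 6 of 17 in complex IV and 9 of 17 in complex V. The median difference was -0.49 in complex I, -0.17 in II, -0.68 in III, -0.10 in IV and -0.52 in V. The shares lower in complex IV (35.3%) and complex II (25%) lay near the 30.5% of probesets with a mean of 9 or more. Atp5d encodes the delta subunit of the central stalk of ATP synthase. Its signal was 10.68, 10.15, 10.99, 10.51, 10.56 and 9.74 in the Pax5+/-;Myd88+/- leukemias, against 12.82, 12.76, 12.57, 12.92, 12.62 and 12.83 in the Pax5+/- leukemias. Every Pax5+/-;Myd88+/- array was below every Pax5+/- array, by -2.31 ± 0.15 log2 units on average (SE, limma adjusted p = 7.17e-08). Ndufs7, an iron-sulfur core subunit of complex I, ran from 9.45 to 10.33 (median 9.91) against 11.72 to 12.62 (median 12.29), a difference of -2.28 ± 0.15 (limma adjusted p = 7.71e-08).

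Ndufs4, an accessory subunit of complex I, ran from 9.12 to 9.98 in the Pax5+/-;Myd88+/- leukemias, against 10.97 to 11.71 in the Pax5+/- leukemias (limma adjusted p = 1.21e-07). Cox6c, a small structural subunit of cytochrome c oxidase, ran from 11.04 to 12.50 against 13.03 to 13.65 (-1.90 ± 0.20), and its second probeset gave -1.76. Here too the groups did not overlap, although replicate 3 of the Pax5+/-;Myd88+/- leukemias, at 12.50, stood well above the other 5 (11.04 to 11.54). Ndufs8 (-1.64), Ndufb11 (-1.75), Ndufc2 (-1.70), Ndufv2 (-1.31), Cox8a (-1.34), Atp5j (-1.26) and Uqcr11 (-1.41) passed in the same direction. Atp5md was lower by -1.52 ± 0.40, yet its groups overlapped, since Pax5+/- leukemias spread from 10.03 to 12.52 and Pax5+/-;Myd88+/- leukemias from 9.32 to 10.92.

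Subunit c forms the membrane ring of ATP synthase, and Atp5g1, Atp5g2 and Atp5g3 encode the same mature protein. All 3 fell, by -1.62 ± 0.18 for Atp5g1, -0.88 for Atp5g2 and -0.52 for Atp5g3. The catalytic beta subunit Atp5b fell by 0.63, whereas its partner alpha subunit Atp5a1 gave 0.13 ± 0.07 (limma adjusted p = 0.18). In complex I the NADH-binding subunit Ndufv1 fell by 0.72, and the neighbouring iron-sulfur subunit Ndufs1 gave 0.16 ± 0.12 (limma adjusted p = 0.31).

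The 6 members that rose were Ndufs5, Ndufa1, Ndufb10, Uqcrfs1, Cox6a1 and Atp5l. Ndufs5, an accessory subunit of complex I, stood at 9.56, 8.85, 10.30, 9.41, 9.36 and 9.29 in Pax5+/-;Myd88+/- leukemias, against 9.03, 7.84, 7.40, 7.93, 8.79 and 8.54 in Pax5+/- leukemias. The groups overlapped only through the 8.85 and the 9.03, and the difference was 1.21 ± 0.27 (limma adjusted p = 0.00274). A further Ndufs5 probeset also names the pseudogene Ndufs5-ps and was left out by the rule, so signal shared with a near-identical copy cannot be told apart. Ndufa1, a membrane-arm subunit encoded on the X chromosome, was higher by 0.98 ± 0.19, with 8.97 to 9.80 against 7.72 to 8.78. The Rieske iron-sulfur protein Uqcrfs1 rose by 0.71 ± 0.15, and Cox6a1, the widely expressed form of subunit 6a of cytochrome c oxidase, by 0.80 ± 0.19. Atp5l (subunit g of ATP synthase) rose by 0.54 on the probeset used, and its other 5 probesets gave 0.57 to 0.92, each passing.

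Markers of other cells moved in this comparison as well. Platelet markers (4 genes) had array medians of 6.42 to 9.34 in Pax5+/-;Myd88+/- leukemias, against 7.90 to 10.64 in Pax5+/- leukemias, and 2 of the 4 passed as lower. Monocyte and macrophage markers passed as lower for 1 of 9, stromal and NK markers for 1 of 7 each and erythroid markers for 1 of 6. Granulocyte markers had a median difference of -1.21 with 0 of 10 passing. Xist ran from 5.39 to 12.80 (median 9.27) in Pax5+/-;Myd88+/- leukemias, against 5.44 to 9.72 (median 5.58) in Pax5+/- leukemias, so its levels were not balanced. The 9.72 lies between the low and high proB levels given before, so Xist does not settle the sex of every leukemia. X-linked members passed in both directions (Ndufa1 higher, Ndufb11 and Cox7b lower). The part of these cells and of sex in the members' differences was not tested.

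**Figure D2:**
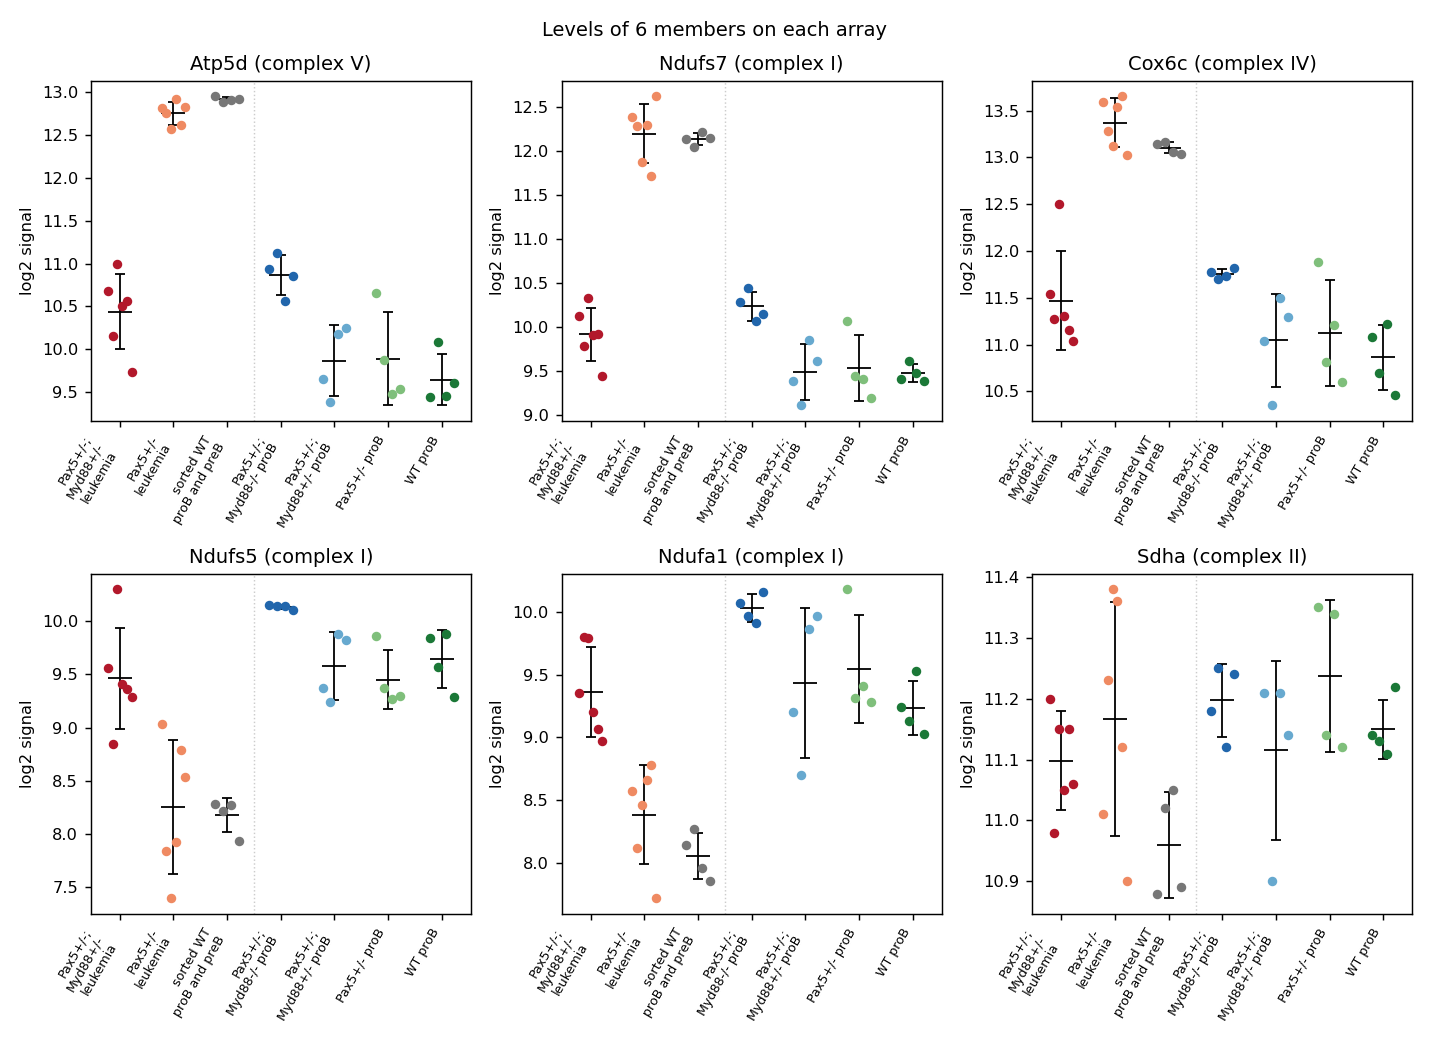
Log2 signal of 6 members on each array, by group, with the mean and SD (black). Atp5d, Ndufs7 and Cox6c are lower, and Ndufs5 and Ndufa1 mostly higher, in Pax5+/-;Myd88+/- leukemias and in all proB groups than in Pax5+/- leukemias and sorted WT cells, while Sdha spans 10.88 to 11.38 over all arrays.

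The second comparison set WT proB cells against sorted WT precursor cells, the normal samples of the 2 experiments. Here 42 members fell and 15 rose, with a median of -0.40 (0.04 over all probesets). Of all probesets 22.9% passed as higher and 19.6% as lower, against 16.9% and 47.2% of the members, and of the brighter probesets (mean of 9 or more) 30.1% and 33.3% did. In all, 23 members (25.8%, against 9.95% of all probesets and 19.1% of the brighter ones) also passed 1 log2 unit. Atp5d stood at 9.44, 10.08, 9.45 and 9.61 in WT proB cells, against 12.95, 12.88, 12.91 and 12.92 in sorted cells, a gap of -3.27 ± 0.23 (limma adjusted p = 4.49e-12). Ndufs7 (-2.67), Ndufs4 (-2.29), Cox6c (-2.23) and Atp5md (-2.09) followed, and the highest rises were those of Ndufs5 (1.47 ± 0.27), Ndufa1 (1.18), Atp5l (1.07) and Ndufa12 (1.02). No complex II member passed. Beyond the comparison itself these samples differ in purification and, per the methods, in age and culture, and also in sex, with Xist at 5.32 to 6.11 in WT proB cells against 12.23 to 12.46 in sorted cells, so these cannot be told apart. NK markers were lower for 7 of 7, with array medians of 5.41 to 5.75 in WT proB cells against 8.02 to 9.04 in sorted cells. Erythroid markers were lower for 6 of 6 (6.62 to 6.84 against 7.79 to 8.50), granulocyte markers for 3 of 10 (6.01 to 6.11 against 6.77 to 9.30) and monocyte and macrophage markers for 3 of 9, and stromal markers were higher for 5 of 7. Their part in the members' differences was not tested.

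The groups of these comparisons share no array, and the same members led both. The fit of the second comparison held all 32 arrays, so its passing lists also rest on the spread of the leukemias. Of the 43 that fell in Pax5+/-;Myd88+/- against Pax5+/- leukemias, 36 fell in WT proB against sorted WT cells (83.7% of the first list and 85.7% of the second), and all 6 that rose also rose there (100% and 40%). Over all probesets the lower lists shared 57.9% of the first and 48% of the second. Across the 89 members the differences correlated with r = 0.84 (Spearman's rho 0.82), against r = 0.55 across all 28944 probesets, and 76 members (85.4%) had the same sign, against 70.6% of probesets. The overlap and correlation were not computed for the brighter probesets alone. Genes are not independent replicates, so these values describe the arrays only.

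**Figure D3:**
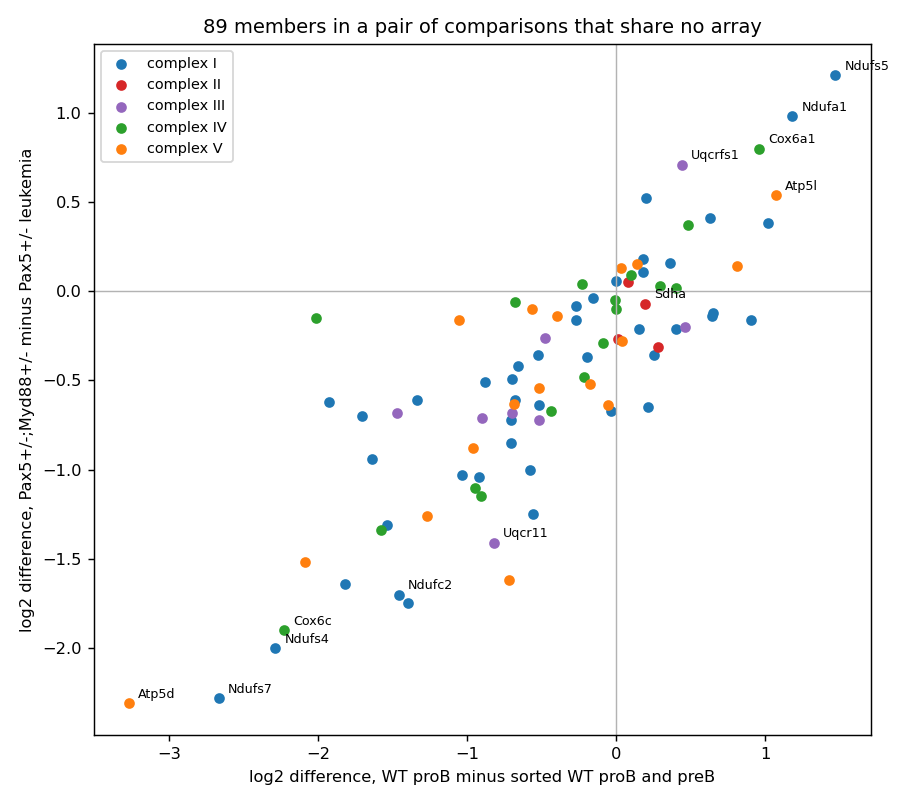
Each point is a member, coloured by complex: log2 difference of Pax5+/-;Myd88+/- minus Pax5+/- leukemias (vertical) against that of WT proB minus sorted WT cells (horizontal). Points run along the diagonal (r = 0.84, n = 89), with Atp5d and Ndufs7 at the low end and Ndufs5 and Ndufa1 at the high end.

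Set out by array, 18 members separated the 7 groups into 2 sides with no overlap, a split noticed in the values and therefore not tested. All 22 arrays of Pax5+/-;Myd88+/- leukemias and the 4 proB groups were below all 10 arrays of Pax5+/- leukemias and sorted WT cells for Atp5b, Atp5d, Atp5j, Cox6c, Cox7b, Cox8a, Ndufa10, Ndufa13, Ndufaf1, Ndufaf3, Ndufb11, Ndufc2, Ndufs4, Ndufs7, Ndufs8, Ndufv1, Ndufv2 and Uqcrc1. That is 20.2% of the members, against 3.1% of all probesets, and no member lay wholly on the other side (3.01% of all probesets did). Of the members 66 had a mean of 9 or more, and the share among the brighter probesets was not computed for this split. Atp5d ran from 9.39 to 11.12 on the 22 arrays and from 12.57 to 12.95 on the 10. Ndufs7 ran from 9.11 to 10.44 and from 11.72 to 12.62. Atp5d (chr10:80138698-80145828, GRCm38.p6) and Ndufs7 (chr10:80249105-80256794) lie near each other on chromosome 10. The 2 sides cut across genotype, disease and the 2 experiments. In the order of deposit the 22 arrays come first and the 10 come last. A processing batch, which the labels do not give, cannot be told apart from the sides. Both comparisons above cross the sides, so the split cannot be told apart from genotype in the first or cell source in the second. Pax5+/-;Myd88+/- leukemias against sorted WT cells, below, cross them too.

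Both leukemia groups were also set against the sorted WT cells, with the same 4 sorted arrays as control. Pax5+/- leukemias had 26 members higher and 3 lower, with a median of 0.26 (-0.03 over all probesets), beside 11.7% and 12.8% of all probesets and 22.9% and 15.9% of the brighter ones. There 4 members (4.49%, against 4.44% of all and 5.88% of the brighter probesets) passed 1 log2 unit. Pax5+/-;Myd88+/- leukemias had 18 higher and 32 lower, with a median of -0.12, beside 13.8% and 17.1% of all probesets. Here 21 members (23.6%, against 7.64% of all and 15.6% of the brighter probesets) passed 1 log2 unit. The brighter probesets passed as higher in 25.2% and as lower in 29.4% there, so the members' 20.2% and 36% lay near those shares. In Pax5+/- leukemias the largest rises were Atp5g1 (1.29 ± 0.20, limma adjusted p = 0.000273), Uqcr11 (1.04 ± 0.12), Ndufb2 (1.03 ± 0.16) and the assembly factor Ndufaf4 (1.01 ± 0.19). Atp5g1 ran from 11.42 to 12.02 (median 11.78) in Pax5+/- leukemias, against 10.51, 10.51, 10.41 and 10.36 in sorted cells. In Pax5+/-;Myd88+/- leukemias it ran from 9.48 to 10.79 (median 10.12), which spans the sorted cells (-0.33 ± 0.20, limma adjusted p = 0.238).

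Members that fell in both leukemia groups were Ndufa3, Ndufaf3 and Cox6b2. Ndufaf3, which with Ndufaf4 helps to build complex I, was 8.22 to 8.60 in Pax5+/-;Myd88+/- leukemias, 8.82 to 9.33 in Pax5+/- leukemias and 9.88 to 9.93 in sorted cells, so the 3 groups followed each other with no overlap. Ndufaf4 went the other way, at 7.72 to 8.62, 8.08 to 9.01 and 7.17 to 7.56 in the same groups, and rose in both leukemia groups (0.85 and 1.01). Of the 7 assembly factors, 5 were higher and 1 lower in Pax5+/- leukemias, and 3 were higher and 2 lower in Pax5+/-;Myd88+/- leukemias. NK markers were lower than in sorted cells for 6 of 7 genes in each leukemia group and erythroid markers for 5 of 6. Stromal markers were higher for 4 of 7 in Pax5+/-;Myd88+/- and 5 of 7 in Pax5+/- leukemias, platelet markers for 1 and 4 of 4, and monocyte and macrophage markers for 3 and 4 of 9. Xist was 12.23 to 12.46 in the sorted cells, above most leukemias as given before. The part of these cells and of sex in the members' differences was not tested.

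Among Pax5+/-;Myd88+/-, Pax5+/- and WT proB cells almost no member differed. Pax5+/- minus WT proB cells had 1 member higher and 0 lower (3 at an unadjusted p under 0.05), with a median of 0.08, beside 4.1% and 2.96% of all probesets and 1.08% past 1 log2 unit. The median was 0.23 within replicates 1 and 3 (82 of 89 members above 0) and -0.07 within replicates 2 and 4 (32 of 89), so its direction turned. Pax5+/-;Myd88+/- minus Pax5+/- proB cells had 0 in either direction by limma (3 at an unadjusted p under 0.05), with a median of -0.04 and differences between -0.31 and 0.23, beside 2.02% and 2.29% of all probesets and 0.815% past 1 log2 unit. Within replicates 1 and 3 this median was -0.14, and within replicates 2 and 4 it was 0.05. The Myd88 allele difference in leukemias was then set against that in proB cells in an interaction test over all 32 arrays. It passed for 39 of the 89 members, 35 of them more negative in leukemias (39.3%) and 4 more positive (4.49%). Over all probesets 21.8% passed, and of the brighter ones 20.5% as more negative and 15.3% as more positive. Ndufs7 gave -2.23 ± 0.24 (limma adjusted p = 1.08e-07), Atp5d -2.29 ± 0.30 and Ndufb11 -1.58 ± 0.22, against Ndufa1 at 1.09 ± 0.32 and Ndufs5 at 1.08 ± 0.35. The leukemia difference crosses the split of arrays described above, and the proB difference does not. The split and the Myd88 allele therefore cannot be told apart in this test.

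The single member that rose in Pax5+/- proB cells was Cox6a2, the heart and skeletal muscle form of subunit 6a. It stood at 8.30, 8.41, 8.25 and 8.33 in Pax5+/- cells, against 7.70, 7.61, 7.79 and 7.55 in WT cells, a difference of 0.66 ± 0.09 (limma adjusted p = 7.48e-05). In Pax5+/-;Myd88-/- cells it was 7.66, 7.73, 8.11 and 7.66, and in Pax5+/-;Myd88+/- cells 8.21, 8.13, 8.27 and 8.20. The Pax5+/-;Myd88-/- cells were thus lower than Pax5+/- cells by -0.53 ± 0.09 (limma adjusted p = 0.000702) and than Pax5+/-;Myd88+/- cells by -0.41 ± 0.09 (limma adjusted p = 0.00672), with no overlap in either case. With all 32 arrays in 1 fit, which shares their spread with the leukemias, these 3 differences no longer passed (limma adjusted p = 0.804, 0.671 and 0.747). Leukemias were widely spread for this gene, at 7.68 to 9.66 in Pax5+/-;Myd88+/- and 7.27 to 10.96 in Pax5+/- mice, and sorted WT cells were at 9.52 to 9.81.

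ProB cells lacking both Myd88 alleles had higher levels over much of the machinery. Pax5+/-;Myd88-/- minus Pax5+/- cells had 36 members higher and 1 lower (Cox6a2), with a median of 0.50 (-0.02 over all probesets and 0.07 over the brighter ones) and 81 of 89 differences above 0. Of all probesets 6.66% passed as higher and 4.86% as lower, against 40.4% and 1.12% of the members, and of the brighter probesets 14.9% and 6.33% did. In all, 2 members (2.25%, against 0.985% of all and 1.11% of the brighter probesets) passed 1 log2 unit. Against Pax5+/-;Myd88+/- cells the same Pax5+/-;Myd88-/- arrays also had 36 higher and 1 lower, with a median of 0.54, beside 6.34% and 4.04% of all probesets and 14.4% and 4.91% of the brighter ones. There 6 members (6.74%, against 0.805% of all and 1.07% of the brighter probesets) passed 1 log2 unit. Complex V took the largest share in the comparison with Pax5+/- cells, with 11 of 17 higher, beside 18 of 43 in complex I, 2 of 4 in complex II, 2 of 8 in complex III and 3 of 17 in complex IV.

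Atp5h, subunit d of the peripheral stalk of ATP synthase, was 11.47, 11.41, 11.23 and 11.43 in Pax5+/-;Myd88-/- cells, against 10.17, 9.58, 10.89 and 10.71 in Pax5+/-;Myd88+/- cells and 11.24, 10.04, 10.32 and 9.79 in Pax5+/- cells. The 4 arrays without Myd88 lay close together and above every Pax5+/-;Myd88+/- array, whereas replicate 1 of the Pax5+/- cells, at 11.24, reached just above the lowest of them. The differences were 1.05 ± 0.29 against Pax5+/-;Myd88+/- cells (limma adjusted p = 0.0302) and 1.04 ± 0.29 against Pax5+/- cells (limma adjusted p = 0.0306). Sdhb, the iron-sulfur subunit of complex II, showed the same order without overlap, at 10.75 to 10.88 against 9.88 to 10.55 in Pax5+/-;Myd88+/- and 9.79 to 10.61 in Pax5+/- cells (differences of 0.61 ± 0.14 and 0.70 ± 0.14). Ndufb2, an accessory subunit of complex I, was 8.62 to 8.96 against 7.23 to 7.90 in Pax5+/-;Myd88+/- and 7.60 to 8.55 in Pax5+/- cells (1.13 ± 0.18 and 0.82 ± 0.18). Atp5md (1.11 against Pax5+/- cells), Atp5d (0.98), Ndufb9 (0.97), Atp5g1 (0.87), Ndufa3 (0.79), Cox5a (0.73) and Cox4i1 (0.54) were also higher. Several of these calls were lost in some of the alternative analyses given under processing. Against Pax5+/- cells Atp5g1 lost it in 10 of them, Atp5md in 9, Ndufb9 in 8, Atp5h in 7 and Atp5d in 4. Sdhb, Ndufb2 and Ndufa3 lost it in 1 each. For Cox5a and Cox4i1 no such count is given.

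**Figure D4:**
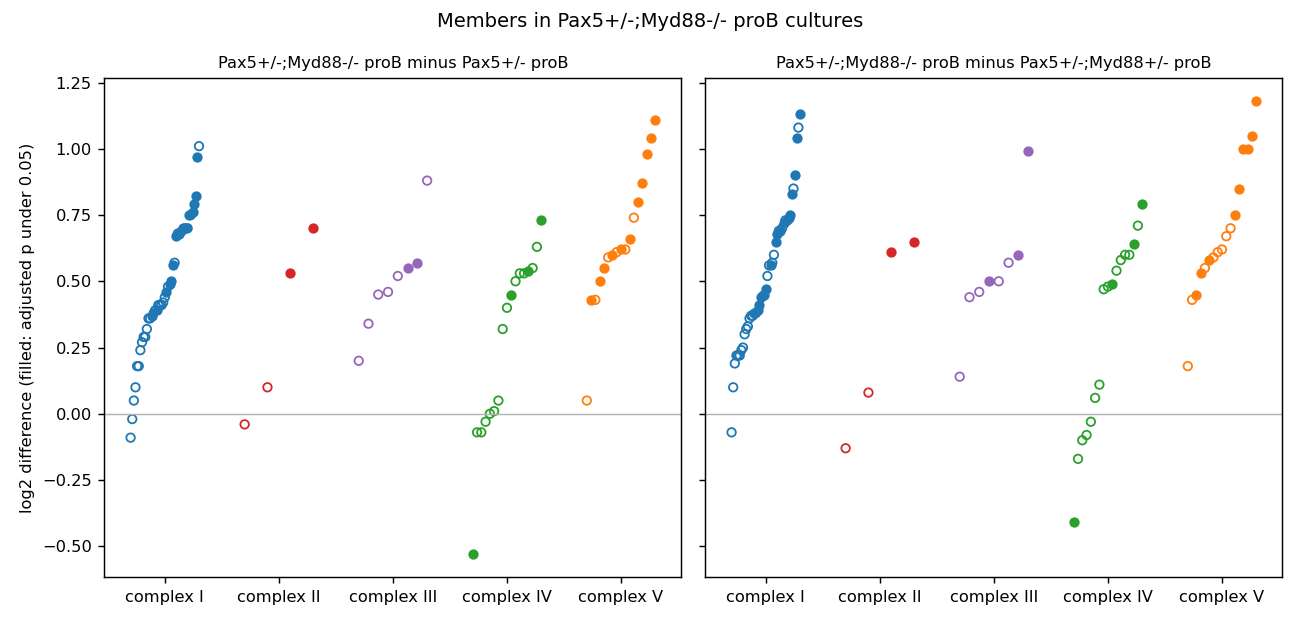
Log2 difference of each member in Pax5+/-;Myd88-/- proB cells, against Pax5+/- cells (left) and Pax5+/-;Myd88+/- cells (right), sorted within each complex; filled points passed an adjusted p under 0.05. Complex V runs from 0.05 to 1.11 on the left and from 0.18 to 1.18 on the right, and Cox6a2 is the filled point below 0 in both.

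These counts rested on few arrays. Against Pax5+/- cells 37 members passed in all, 66 without Pax5+/- replicate 1, 7 to 9 without any other Pax5+/- replicate and 9 to 21 without each Pax5+/-;Myd88-/- replicate. Against Pax5+/-;Myd88+/- cells 37 passed, 62 without Pax5+/- replicate 1 (which enters through the shared spread), 60 without Pax5+/-;Myd88+/- replicate 3, 13 and 6 without its replicates 1 and 2, and 11, 15 and 13 without Pax5+/-;Myd88-/- replicates 1, 2 and 4. Stromal markers were higher on replicates 1 and 3 than on 2 and 4 in every proB group, at 8.07 and 7.96 against 7.60 and 7.62 in Pax5+/-;Myd88-/- cells and at 9.37 and 9.61 against 7.63 and 7.48 in Pax5+/- cells. The median difference against Pax5+/- cells was 0.28 within replicates 1 and 3 and 0.71 within 2 and 4, with 78 and 82 of 89 members above 0, and against Pax5+/-;Myd88+/- cells 0.41 and 0.64.

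Members that moved little are as much part of the picture. Sdha, the flavoprotein of complex II, averaged 11.10 ± 0.08 in Pax5+/-;Myd88+/- leukemias, 11.17 ± 0.19 in Pax5+/- leukemias and 10.96 ± 0.09 in sorted cells, and its 4 proB group means lay between 11.12 and 11.24. It passed in none of the 8 comparisons, as did 8 others (Atp5a1, Cox4i2, Cox7b2, Cox8b, Ndufa11, Ndufa2, Ndufa4l2 and Ndufb3). Ndufa11 is uncertain, because its second probeset gave -1.04 (limma adjusted p = 5.92e-05) between Pax5+/-;Myd88+/- and Pax5+/- leukemias, against -0.08 for the brighter probeset used. Cox7a2l, a factor of respiratory supercomplexes, likewise gave 1.56 on its second probeset and 0.37 on the one used. No member with several probesets passed in opposite directions in any comparison.

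Several members are tissue-restricted forms, such as Cox7a1 and Cox8b of heart and skeletal muscle. Over all arrays Cox7b2 had a mean signal of 5.08, the only member under 6, Cox8b had 6.10, Cox7a1 7.15 and Cox4i2 7.20. Cox6b2, the testis form of subunit 6b, was lower than in sorted cells in Pax5+/-;Myd88+/- leukemias (-0.62), Pax5+/- leukemias (-0.56) and WT proB cells (-0.68). Of the X-linked members Ndufa1, Ndufb11 and Cox7b, none passed between Pax5+/-;Myd88-/- and Pax5+/- proB cells, where the sexes differ (0.48, 0.41 and 0.53).

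The genes around the machinery were counted on further lists. Over all probesets 18.1% passed as higher and 16.3% as lower in Pax5+/-;Myd88+/- against Pax5+/- leukemias, 6.66% and 4.86% in Pax5+/-;Myd88-/- against Pax5+/- proB cells, and 22.9% and 19.6% in WT proB against sorted cells. Of the brighter probesets 19.6% and 30.5%, 14.9% and 6.33%, and 30.1% and 33.3% passed in the same order. The list counts stand beside these shares with no test between lists. Mitochondrial ribosomal proteins (77 genes), which translate the mitochondrial subunits, had 3 higher and 47 lower in Pax5+/-;Myd88+/- against Pax5+/- leukemias (median -0.43), 25 higher and 0 lower in Pax5+/-;Myd88-/- against Pax5+/- proB cells (0.35), and 9 higher and 25 lower in WT proB against sorted cells (-0.21). Assembly factors outside the members (35 genes) had 2 higher and 18 lower, 8 and 0, and 8 and 17 in these comparisons. Cytosolic ribosomal proteins (53 genes) had 17 higher and 18 lower (median -0.04), 13 and 0 (0.32), and 22 and 16 (0.12). Electron carriers and the citric acid cycle (19 genes) had 3 higher and 6 lower, 5 and 0, and 3 and 5, and glycolysis (15 genes) 1 and 6, 7 and 0, and 5 and 1. The lower counts of the citric acid cycle and cytosolic ribosomal lists in the leukemias lay near the share of the brighter probesets. So did that of the mitochondrial ribosomal list in WT proB against sorted cells. Of 13 mitochondrially encoded genes, 2 had a probeset naming them alone, and COX2 gave 0.26 (limma adjusted p = 0.00774) and ND3 0.02 (adjusted p = 0.936) in Pax5+/-;Myd88+/- against Pax5+/- leukemias.

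Among 15 regulators of mitochondrial gene expression, 1 was higher and 6 lower in Pax5+/-;Myd88+/- against Pax5+/- leukemias. Tfb1m, a methyltransferase of mitochondrial ribosomal RNA, averaged 8.01 in Pax5+/-;Myd88+/- leukemias, 9.10 in Pax5+/- leukemias, 8.84 in sorted cells and 7.92 to 8.16 in the proB groups. The activators named above did not move together in this comparison. Yy1 was lower by -0.63 (limma adjusted p = 8.07e-07), whereas the GABP gene Gabpa was higher by 0.34 (limma adjusted p = 0.00522). Gabpb1 gave 0.15 (limma adjusted p = 0.48) and Nrf1 0.17 (limma adjusted p = 0.0587). Their part in the members' differences was not tested. Myc averaged 11.11 in Pax5+/-;Myd88+/- leukemias, 11.62 in Pax5+/- leukemias, 9.59 in sorted cells and 11.04 to 11.45 in the proB groups. In Pax5+/-;Myd88-/- against Pax5+/- proB cells 1 regulator passed, as lower. The 5 genes outside the members whose 7 group means were most like the members' median were Eif3l (r = 0.989 over the 7 groups), Cnih1 (0.988), Erh (0.984), Mettl18 (0.982) and Parl (0.980), a description with 7 points.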

How the data were processed

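RNA of 32 samples was hybridised to Affymetrix MoGene 1.0 ST arrays. The deposited log2 values had been made by the authors with gene-level RMA in Transcriptome Analysis Console 4.0.1 and are given to 2 decimals; whether all arrays were normalised together is not given in the sources used here. Of 28944 probesets, 21789 named 1 gene, 1621 several and 5534 none in the platform annotation. The members and lists were chosen with earlier results of these data known. Groups were compared with limma 3.58.1 (R 4.3.3) on these values without further normalisation, with Benjamini-Hochberg adjustment over all probesets and a threshold of 0.05. The 16 arrays of each experiment shared a fit, and all 32 entered the WT proB against sorted WT comparison and the interaction. The scripts were tested on simulated data. Named were the members with the largest passing differences per comparison, the extremes of each complex and those the lists and checks single out. Alternatives were array centring, a filter at a mean of 6, limma-trend, mean over probesets, other sample sets, an unpaired t-test (named in the methods in general, not for the arrays), a replicate block and leaving out each array. The number of arrays limits the precision. Tables were made with pandas 2.3.3 and figures with matplotlib 3.10.9. A further marker list is not reported here.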

Additional observations from a re-analysis of the deposited data

Results flagged for a closer look

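In 8 of 175 group values of named members 1 array stood far from the others relative to the range of its group, where chance gives about 1 in 20. Cox6c was 12.50 on replicate 3 of the Pax5+/-;Myd88+/- leukemias. Cox6a2 (8.11) and Ndufaf3 (8.58) were high on replicate 3 of the Pax5+/-;Myd88-/- proB cells. Ndufs5 (9.86), Ndufa1 (10.18) and Uqcrfs1 (9.30) were high on replicate 1 of the Pax5+/- proB cells, the array whose omission raised the number of passing members most. In the sorted WT cells Ndufaf4 was low on replicate 4 (7.17). Ndufaf3 was flagged there on replicate 2 (9.88), although no sorted array exceeded 9.93, so the gap was small.

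The difference between Pax5+/-;Myd88+/- and Pax5+/- samples was itself different in leukemias and in proB cells for 39 members (limma interaction over all 32 arrays, leukemia difference minus proB difference). It was more negative in leukemias for Atp5d (-2.29, adjusted p = 1.89e-06), Ndufs7 (-2.23), Ndufs4 (-1.89), Cox6c (-1.82), Ndufc2 (-1.68), Ndufs8 (-1.65), Ndufb11 (-1.58), Atp5g1 (-1.48), Uqcr11 (-1.38), Ndufa3 (-0.69) and Ndufaf3 (-0.53). It was more positive for Ndufa1 (1.09), Ndufs5 (1.08), Cox6a1 (0.88, adjusted p = 0.0279) and Uqcrfs1 (0.81). Over all probesets 21.8% passed this test, and of the brighter ones 20.5% as more negative and 15.3% as more positive. Only the leukemia difference crosses the split of arrays described above, so the split and the Myd88 allele cannot be told apart here.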

How the results depend on the processing

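The counts of passing members stayed within 1.5 times their value in both leukemia groups against sorted WT cells, in Pax5+/-;Myd88+/- against Pax5+/- leukemias, in WT proB against sorted WT cells and in the interaction under every alternative run, and no named member reversed. The count for Pax5+/- against WT proB cells, 1, was 0 with all arrays in 1 fit. For Pax5+/-;Myd88-/- against Pax5+/- proB cells the count of 37 was 23 with all arrays in 1 fit and 1 by an unpaired t-test per probeset after adjustment (a test the methods name in general, with none named for the arrays), and 7 to 66 on leaving out 1 array. For Pax5+/-;Myd88-/- against Pax5+/-;Myd88+/- proB cells the count of 37 was 61 with only these 2 groups fitted, 3 by the unpaired t-test, 60 with replicates 1 and 3 against 2 and 4 as a term (an alternative chosen after seeing the data) and 6 to 62 on leaving out 1 array. The cause was not tested. Of the checks on single named members, 2920 kept the call and 155 lost it.

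With the replicate number as a block, 51 members passed in Pax5+/-;Myd88+/- leukemias and 35 in Pax5+/- leukemias against sorted WT cells, 52 in Pax5+/-;Myd88+/- against Pax5+/- leukemias, 1 in Pax5+/- against WT proB cells, 0 in Pax5+/-;Myd88+/- against Pax5+/- proB cells, 36 and 43 in Pax5+/-;Myd88-/- against Pax5+/- and Pax5+/-;Myd88+/- proB cells and 59 in WT proB against sorted WT cells. Deviations of same-numbered samples correlated between -0.27 and 0.52, and in 0 comparisons was every pair over 0.1, so the numbers were not taken to pair the samples. In the proB groups replicates 1 and 3 did share higher stromal markers than replicates 2 and 4, as the values in the proB comparisons show.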
